A study of Mus musculus with 2 samples.

Results

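The genes described here carry glucose into the cell, break it down to pyruvate and lactate, admit pyruvate to the mitochondrion or divert glucose 6-phosphate into the pentose phosphate pathway. They are 36 genes taken by name from these pathways. Of them, 33 had a probe set annotated to that gene alone, out of 18194 such genes on the array. Each gene was read from its brightest probe set, by mean log2 signal. Gpi1, Eno1 and G6pdx were not analysed here.

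The study used 2 Affymetrix Mouse Genome 430 2.0 arrays, each hybridised with RNA of peritoneal macrophages of 8-week-old male C57BL6 mice. The mice, labelled wild type, had received 0.2 ml of 10% thioglycolate medium into the peritoneal cavity 1 week before the cells were washed out. Both groups are thus elicited macrophages and not those of an untreated cavity. Their state of activation was not examined. The cells were plated in α-MEM with serum and grown to 80% confluence. The CSF1 group (1 array) then received 100 ng/ml CSF1 for 12 h, and the control group (1 array) was left untreated for that time. CSF1, also called M-CSF, is the growth factor of macrophages and acts through the receptor tyrosine kinase Csf1r. The labels do not say how many mice were pooled, or whether both samples came from the same mice.

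Glycolysis turns glucose into pyruvate in the cytosol with a net gain of ATP. Hexokinase traps glucose inside the cell, phosphofructokinase commits it to breakdown, and lactate dehydrogenase regenerates the cofactor that the pathway consumes. The pyruvate dehydrogenase complex instead converts pyruvate to acetyl-CoA in the mitochondrion, and the Pdk kinases switch this complex off. The pentose phosphate pathway supplies NADPH and ribose 5-phosphate, the sugar of nucleotides. Inflammatory macrophages are known for a high glycolytic flux, and the hypoxia-inducible factor HIF-1 is a known activator of many glycolytic genes. Flux was not measured here.

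With 1 array per group, no difference had a replicate check and no test was possible. Beside a gene stands the SD of the log2 ratio across its own probe sets above background, which does not cover the spread between cultures or mice. Pooled over 3631 genes this SD was 0.28. Signals are the authors' linear units. A background level of 156 units was set from genes of unrelated tissues, and 10571 genes exceeded it on at least 1 array. The median log2 ratio of CSF1 over control over these genes was 0.00, and genes are called higher or lower relative to it. The 18 spike-in probe sets for hybridisation averaged -0.29 ± 0.13 on this scale (SD across spikes). Centring on them would raise by 0.29 the ratio of each gene above background on both arrays, by less that of a gene at background on 1 array, and the median of all genes to 0.28.

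The markers bore out the presence of macrophages but do not show that other cells were absent. Csf1r stood at 18697 units on the CSF1 array and 23705 units on the control array, and all 8 macrophage markers exceeded background on both arrays. Of these, 7 of 8 had a ratio below 0, with a median of -0.28 and a summed signal of 116729 units on the CSF1 array and 142448 units on the control array. Fibroblast markers were also bright, and 5 of 5 had a ratio above 0, with summed signals of 63801 units on the CSF1 array and 50509 units on the control array. Summed NK cell markers were 960 units on the CSF1 array and 1410 units on the control array. On the CSF1 array the sums were 1192 units for T cells, 448 for B cells, 7138 for neutrophils, 226 for eosinophils, 2237 for mast cells and 606 for mesothelium. On the control array they were 1128 units for T cells, 593 for B cells, 8013 for neutrophils, 276 for eosinophils, 2586 for mast cells and 354 for mesothelium. The sums take in signals below background as read. Among these were Lrrn4 of mesothelium, at 105 units on the CSF1 array and 11.0 units on the control array, and Cd79a of B cells, at 50.3 and 155 units. Small sums are therefore no measure of a shift in the cell mixture. Cd3e, Ncr1, Cd79a, Ms4a1, S100a9, Ngp, Camp, Epx, Prg2, Mcpt4, Msln, Krt19 and Lrrn4 were at background on both arrays. In these bulk samples, fewer cells of a type and less RNA per cell cannot be told apart, and the part of the cell mixture in the ratios below was not tested.

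Relative to the other genes, those of glucose uptake and glycolysis tended to be lower on the CSF1 array by small amounts. The median over 22 genes was -0.22 as deposited. After quantile normalization Gapdh moved from -0.30 to -0.13, Ldha from -0.22 to -0.12 and Pkm from 0.12 to 0.20. The middle of the 22 then lay between Ldha and Pgk1, the latter at -0.11. After loess it lay between Pgk1 at -0.11 and Ldha at -0.10, so the median of -0.22 holds only as deposited. With the arrays centred on the spikes it lay between Ldha and Pfkl, both at 0.07, below the median of all genes. The 5 measured pentose phosphate genes had a median of 0.11 and ranged from -0.13 for Taldo1 to 0.58 for Rpia, and the 3 pyruvate dehydrogenase subunits had a median of 0.13. The difference between these groups was not tested. Of 32 measured genes (Pdk2 was at background on both arrays), 20 had a log2 ratio below 0, or 62.5%, against 49.6% of all measured genes, and 12 a ratio above 0, against 50.4%. With the arrays centred on the spikes, 10 of the 32 were below 0. At least 1.5-fold lower on the CSF1 array were 4 of the 32, or 12.5%, against 4.87% of all measured genes. These were Slc2a3, Pfkfb3, Slc16a3 and Pdk1. None of the 32 was at least 1.5-fold higher, against 5.37% of all measured genes. None was past 2-fold, with Slc16a3 entered at its lower bound because its CSF1 signal was at background. With no background level the log2 ratio of Slc16a3 was -1.68. Of all measured genes, 0.605% were at least 2-fold lower and 0.795% at least 2-fold higher. At the smaller size of 0.32 on the log2 scale, 9 were lower and 1 was higher, against 15.0% and 16.4% of all measured genes. The median of the 32 ratios was -0.09. It was 0.20 with the arrays centred on the spikes, where the median of all genes was 0.28.

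**Figure D1:**
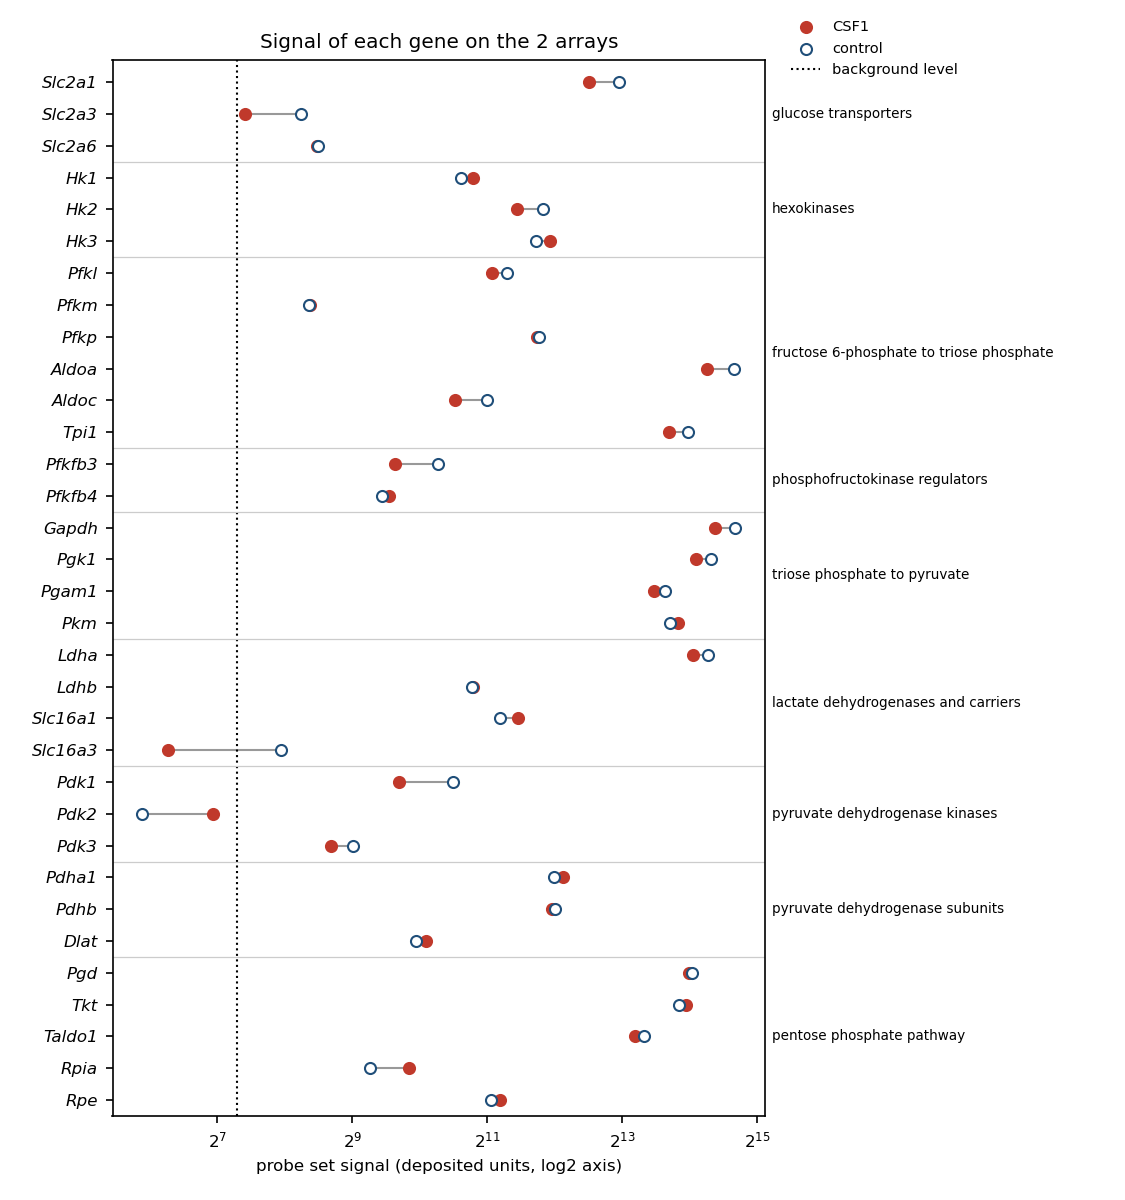
Signal of each of the 33 genes with a probe set of its own, in the authors' units on a log2 axis, with filled points for the CSF1 array, open points for the control array and a dotted line at the background level of 156 units. The open point lies clearly to the right of the filled one for Slc2a3, Pfkfb3, Slc16a3 and Pdk1. It lies to the left for Rpia and, with both points below the background level, for Pdk2.

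Glucose transporters were lower or level. Slc2a1, which encodes the widely expressed transporter GLUT1, read 5799 units on the CSF1 array and 7932 units on the control array, 1.37-fold lower. Its 3 probe sets all pointed the same way and averaged -0.28 ± 0.19 on the log2 scale (SD across probe sets, as in all values of this form). Slc2a3, the high-affinity transporter GLUT3, read 170 units on the CSF1 array and 302 units on the control array, 1.77-fold lower. Both values lie close to background, and with the background at the 95th instead of the 90th percentile, 242 units, its log2 ratio was a bound of -0.32. Slc2a6, a transporter of lysosomal membranes, read 357 units on the CSF1 array and 359 units on the control array.

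The hexokinase genes had ratios on both sides of 0. Hk2, the inducible isozyme, read 2767 units on the CSF1 array and 3643 units on the control array, 1.32-fold lower on its 1 probe set. Hk3, the isozyme of myeloid cells, read 3885 units on the CSF1 array and 3389 units on the control array, 1.15-fold higher, and its 2 probe sets averaged 0.28 ± 0.11 (log2). For Hk1, the broadly expressed isozyme, the probe sets disagreed. The brighter one read 1766 units on the CSF1 array and 1571 units on the control array, a log2 ratio of 0.17, while the dimmer one read 324 units on the CSF1 array and 551 units on the control array, a log2 ratio of -0.77. The SD between them, 0.66, was the largest among the genes described here, so no direction can be given for Hk1.

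From fructose 6-phosphate to triose phosphate, 5 of 6 measured genes were below 0 as deposited, with a median of -0.25. Among the phosphofructokinase subunits, which form the committing enzyme of glycolysis, Pfkl was 1.16-fold lower, and its 2 probe sets averaged -0.23 ± 0.02 (log2). Pfkm and Pfkp had log2 ratios of 0.02 and -0.03, and the other measured probe set of Pfkp was at 0.35. The aldolase gene Aldoa read 19579 units on the CSF1 array and 25800 units on the control array, 1.32-fold lower. All 5 of its probe sets were below 0, but the mean was smaller, -0.19 ± 0.12, and after quantile normalization its brightest probe set was at -0.24. Aldoc, the aldolase best known from brain, read 1467 units on the CSF1 array and 2039 units on the control array, 1.39-fold lower on the 1 probe set above background. The triose phosphate isomerase gene Tpi1 read 13247 units on the CSF1 array and 16069 units on the control array, 1.21-fold lower, and its 3 probe sets averaged -0.29 ± 0.06 (log2). Centring on the spikes put Pfkl, Pfkp and Tpi1 above 0, and each stayed below the median of all genes.

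The 2 regulators of phosphofructokinase had ratios on opposite sides of 0. Pfkfb3 encodes an enzyme that makes fructose 2,6-bisphosphate, the strongest activator of phosphofructokinase. It read 794 units on the CSF1 array and 1231 units on the control array, 1.55-fold lower, while its other probe set was at background on the CSF1 array, at 135 units, and read 246 units on the control array. Pfkfb4, its relative, read 749 units on the CSF1 array and 696 units on the control array, a log2 ratio of 0.11.

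In the steps from triose phosphate to pyruvate, 3 of 4 measured genes were below 0 as deposited. Pgk1, the first ATP-forming kinase of the pathway, read 17461 units on the CSF1 array and 20483 units on the control array, 1.17-fold lower, and its 3 probe sets averaged -0.22 ± 0.16 (log2). The mutase gene Pgam1 was 1.12-fold lower. The pyruvate kinase gene Pkm, the last step, read 14491 units on the CSF1 array and 13358 units on the control array, a log2 ratio of 0.12. After quantile normalization Pgk1 was at -0.11 and Pgam1 at -0.10. Pgk1 and Pgam1 were above 0 when the arrays were centred on the spikes, and below the median of all genes.

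Gapdh, the dehydrogenase between these steps, was read from 3 control probe sets of the array that lie along its transcript. The 3′ one read 21311 units on the CSF1 array and 26188 units on the control array, a log2 ratio of -0.30. The middle one was at -0.57 and the 5′ one at -0.74, with 15266 units on the CSF1 array and 25539 units on the control array. The ratio of 3′ to 5′ signal, a measure of RNA integrity, was thus 1.40 on the CSF1 array and 1.03 on the control array. For Actb it was 1.38 on the CSF1 array and 1.35 on the control array. Actb, a bright gene outside glucose metabolism, had log2 ratios of CSF1 over control of -0.30 on its 3′ probe set and -0.33 on its 5′ one. Whether the ratios of the bright glycolytic genes differ from those of other bright genes was not tested. Gapdh was below the median of all genes on each of its probe sets, but the size of its ratio moved with the position along the transcript, and on the 3′ probe set it was -0.13 after quantile normalization. Another 3 probe sets that name Gapdh also name other genes and were not used.

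**Figure D2:**
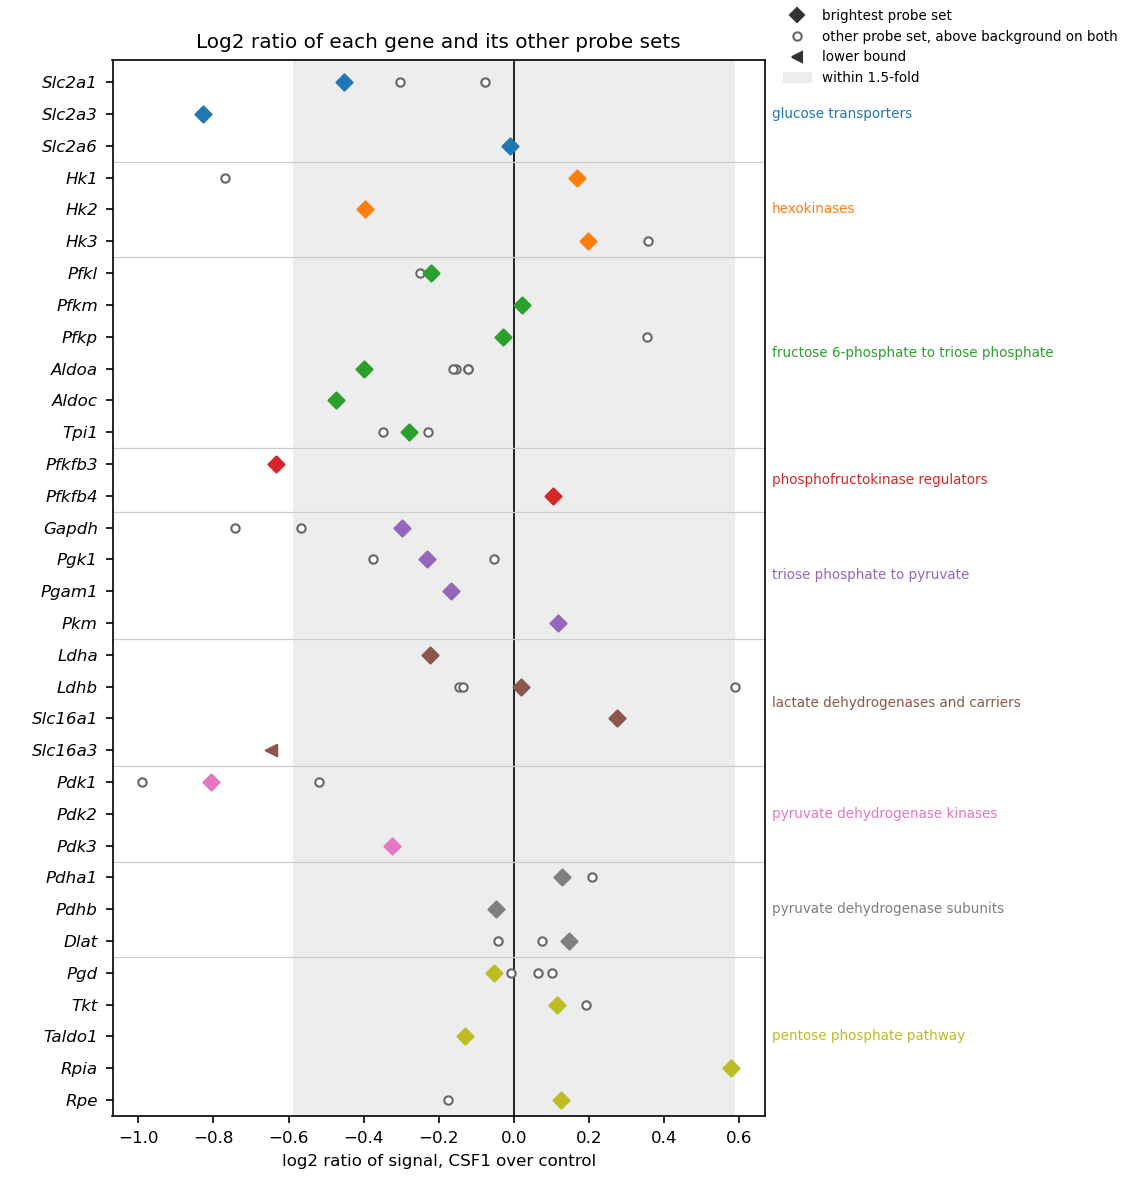
Log2 ratio of CSF1 over control for each gene on its brightest probe set (diamonds) and on its other probe sets above background on both arrays (open circles), with a triangle for the lower bound of Slc16a3 and a grey band for ratios within 1.5-fold. The probe sets of Pdk1, Tpi1 and Aldoa all lie below 0, whereas those of Hk1, Pfkp and Ldhb lie on both sides.

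At the lactate end, Ldha, the lactate dehydrogenase subunit that favours lactate formation, read 16914 units on the CSF1 array and 19757 units on the control array, 1.17-fold lower as deposited, at -0.12 after quantile normalization and at 0.07 with the arrays centred on the spikes. Ldhb, the subunit of oxidative tissues, was level on its brightest probe set, with 1776 units on the CSF1 array and 1751 units on the control array, but its 4 probe sets had an SD of 0.35. The monocarboxylate carriers, which move lactate and pyruvate across the plasma membrane, had ratios on opposite sides of 0 as deposited. Slc16a3, the carrier MCT4 of glycolytic cells, read 76.7 units on the CSF1 array, which is at background, and 245 units on the control array, at least 1.57-fold lower. With the stricter background its bound shrank to a log2 ratio of -0.02. Slc16a1, the carrier MCT1, read 2822 units on the CSF1 array and 2332 units on the control array, 1.21-fold higher.

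At the entry of pyruvate into the mitochondrion, both measured kinases were lower on the CSF1 array and the 3 subunits of the enzyme they inhibit lay near 0. Pdk1, a kinase that inhibits pyruvate dehydrogenase, read 826 units on the CSF1 array and 1445 units on the control array, 1.75-fold lower. Its 3 measured probe sets averaged -0.77 ± 0.24 (log2), and Pdk1 was below 0 under each of the 9 alternative treatments of the data. Pdk3 read 413 units on the CSF1 array and 517 units on the control array, a log2 ratio of -0.33, and Pdk2, with 122 units on the CSF1 array and 59.1 units on the control array, was at background on both. Among the subunits of the complex itself, Pdha1 read 4459 units on the CSF1 array and 4080 units on the control array, and its 2 probe sets averaged 0.17 ± 0.06 (log2). Pdhb was at -0.05, and Dlat at 0.06 ± 0.09 over 3 probe sets.

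The pentose phosphate genes were mostly level. Pgd, whose enzyme forms NADPH in the oxidative branch, read 16215 units on the CSF1 array and 16831 units on the control array, and its 4 probe sets averaged 0.03 ± 0.07 (log2). Transketolase, Tkt, which returns sugars to glycolysis, had a mean of 0.15 ± 0.05 over 2 probe sets, and its partner transaldolase, Taldo1, was at -0.13. The highest ratio among the 32 genes belonged to Rpia, the isomerase that forms ribose 5-phosphate. It read 915 units on the CSF1 array and 613 units on the control array, 1.49-fold higher on its 1 probe set, and 94.4% of all measured genes had a lower ratio. Rpe, the epimerase beside it in the pathway, was at 0.12 on its brightest probe set and at -0.03 ± 0.21 over 2. As deposited, 3 of the 5 measured pentose phosphate genes were above 0, with a median of 0.11. Of the 22 genes of glucose uptake, glycolysis and lactate handling, 7 were above 0 as deposited, with a median of -0.22.

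The promoters of the 3 genes at least 1.5-fold lower for which a sequence was at hand, and that of Rpia, the highest gene, are shown to set their HIF-type motifs side by side. Each runs from 250 bases before to 50 bases after the gene start in RefSeq on GRCm38.p6, and for genes with several starts it is the one farthest upstream. Capitals mark ACGTG or GCGTG, the core of the hypoxia response element, on either strand. The regions are chr2:71872974-71873273 (plus strand) for Pdk1, chr11:120948817-120949116 (plus strand) for Slc16a3, chr2:11553880-11554179 (minus strand) for Pfkfb3 and chr6:70792126-70792425 (minus strand) for Rpia.
Pdk1: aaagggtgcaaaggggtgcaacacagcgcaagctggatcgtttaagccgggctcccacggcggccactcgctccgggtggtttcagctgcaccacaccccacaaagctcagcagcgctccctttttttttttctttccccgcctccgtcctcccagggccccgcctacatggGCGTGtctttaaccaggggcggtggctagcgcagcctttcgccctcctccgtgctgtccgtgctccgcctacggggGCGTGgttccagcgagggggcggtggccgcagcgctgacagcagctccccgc
Slc16a3: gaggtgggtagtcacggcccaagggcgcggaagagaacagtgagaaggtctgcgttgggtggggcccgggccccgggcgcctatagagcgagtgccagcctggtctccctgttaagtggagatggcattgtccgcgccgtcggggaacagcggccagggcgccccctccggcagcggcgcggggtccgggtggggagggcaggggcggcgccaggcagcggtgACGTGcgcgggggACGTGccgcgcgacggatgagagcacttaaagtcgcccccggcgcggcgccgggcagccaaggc
Pfkfb3: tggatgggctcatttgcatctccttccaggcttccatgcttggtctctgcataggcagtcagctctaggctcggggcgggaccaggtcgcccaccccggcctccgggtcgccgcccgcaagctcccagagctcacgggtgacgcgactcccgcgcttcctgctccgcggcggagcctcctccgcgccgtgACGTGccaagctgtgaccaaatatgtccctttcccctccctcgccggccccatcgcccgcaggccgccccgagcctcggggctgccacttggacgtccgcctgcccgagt
Rpia: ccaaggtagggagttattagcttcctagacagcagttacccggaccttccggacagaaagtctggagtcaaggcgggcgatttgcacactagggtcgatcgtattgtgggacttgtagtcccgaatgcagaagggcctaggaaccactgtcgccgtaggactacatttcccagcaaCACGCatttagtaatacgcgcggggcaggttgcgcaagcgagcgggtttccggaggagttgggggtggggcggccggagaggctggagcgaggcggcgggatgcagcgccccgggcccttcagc

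Counted from the gene start, the matches begin at bases -78 and -2 in Pdk1, -27 and -14 in Slc16a3, -60 in Pfkfb3 and -74 in Rpia, so the promoter of the highest gene held one as well. The letters ACGTG, also found inside the E-box CACGTG, occurred in the promoter window of 19 of 35 genes with a sequence, or 54.3%, against 29.8% of 8593 measured genes and 21.8% of all 27025 genes with a promoter sequence. GCGTG occurred in 24 of 35 (68.6%, against 56.2% of measured genes), and either form in 31 of 35 (88.6%, against 67.9%). A gene with several starts was counted once if any window matched. Counted by window, either form occurred in 78.0% of the 50 windows of these genes and in 61.7% of those of measured genes. All 8 genes lower by at least 0.32 (log2) with a sequence held either form, as did 23 of the other 27. The 27 include Gpi1, Eno1, G6pdx and Pdk2, which had no measured ratio. CACGTG was found in 5 of 35 genes (14.3%, against 12.0% of measured genes), the GC box GGGCGG in 28 (80.0%, against 68.8%) and TATAAA only in that of Slc2a1 (2.86%, against 8.82%). These matches are letters in a window and say nothing of binding.

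Among related genes outside these 36, the glycogen and regulator lists held most of the ratios past 1.5-fold. Of 93 measured genes in 9 related lists, 7 were at least 1.5-fold lower, or 7.53%, against 4.87% of all measured genes, and 2 at least 1.5-fold higher, against 5.37%. Their median was -0.03. The share lower was above that of all genes and the share higher was below it, both from few genes, and neither difference was tested. Glycogen genes had a median of -0.22, with 3 of 12 at least 1.5-fold lower, against 4.87% of all measured genes. Ppp1r3b, which targets protein phosphatase 1 to glycogen, read 570 units on the CSF1 array and 1086 units on the control array, 1.90-fold lower. Phkb, a subunit of phosphorylase kinase, was 1.78-fold lower, and the phosphorylase gene Pygl 1.50-fold lower, while Phka2, another phosphorylase kinase subunit, had a log2 ratio of 0.55. Each was read from 1 probe set above background.

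Among the regulators, the oxygen-sensing prolyl hydroxylase gene Egln3 read 347 units on the CSF1 array and 806 units on the control array, 2.32-fold lower. Hif1a, which encodes the regulated subunit of HIF-1, read 10004 units on the CSF1 array and 16713 units on the control array, 1.67-fold lower, and its 3 probe sets averaged -0.85 ± 0.12 (log2). Txnip, an inhibitor of glucose uptake, was also lower, at -0.60 ± 0.13 over 2 probe sets. Sirt6, a chromatin deacylase known to restrain glycolytic genes, read 257 units on the CSF1 array and 162 units on the control array, 1.59-fold higher, close to background. The median of the 15 measured regulators was 0.02.

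On the brightest probe sets the citric acid cycle was level, with all 19 measured genes within 0.32 of 0 on the log2 scale. The median was -0.03, and the largest ratio, -0.23, was that of the succinate dehydrogenase subunit gene Sdhb. The probe sets of some genes disagreed. Means over 2 probe sets were -0.33 ± 0.32 for Sdha, 0.31 ± 0.30 for Sdhc, 0.28 ± 0.29 for Aco1 and -0.26 ± 0.36 for Suclg2. Other pentose phosphate genes had a median of 0.18, with 4 of 6 above 0 and the lactonase gene Pgls at 0.44. In the list of pyruvate entry and anaplerosis the median was -0.02, with the mitochondrial carboxykinase gene Pck2 at 0.42. Other transporters had a median of 0.01, with the sugar phosphate carrier gene Slc37a2 1.55-fold higher and the monocarboxylate carrier gene Slc16a7 at -0.31. Other isozymes of the same steps had a median of 0.01, with Eno3, the muscle enolase, at 0.51 and Pklr, the pyruvate kinase of liver and red cells, with a bound of at least 1.68-fold lower, its CSF1 signal being at background. Side branches had a median of -0.06, with Pgm3 of hexosamine synthesis 1.55-fold lower and the fructose kinase gene Khk at 0.44. Of the gluconeogenesis genes 1 of 5 was measured, G6pc3 at -0.21.

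**Figure D3:**
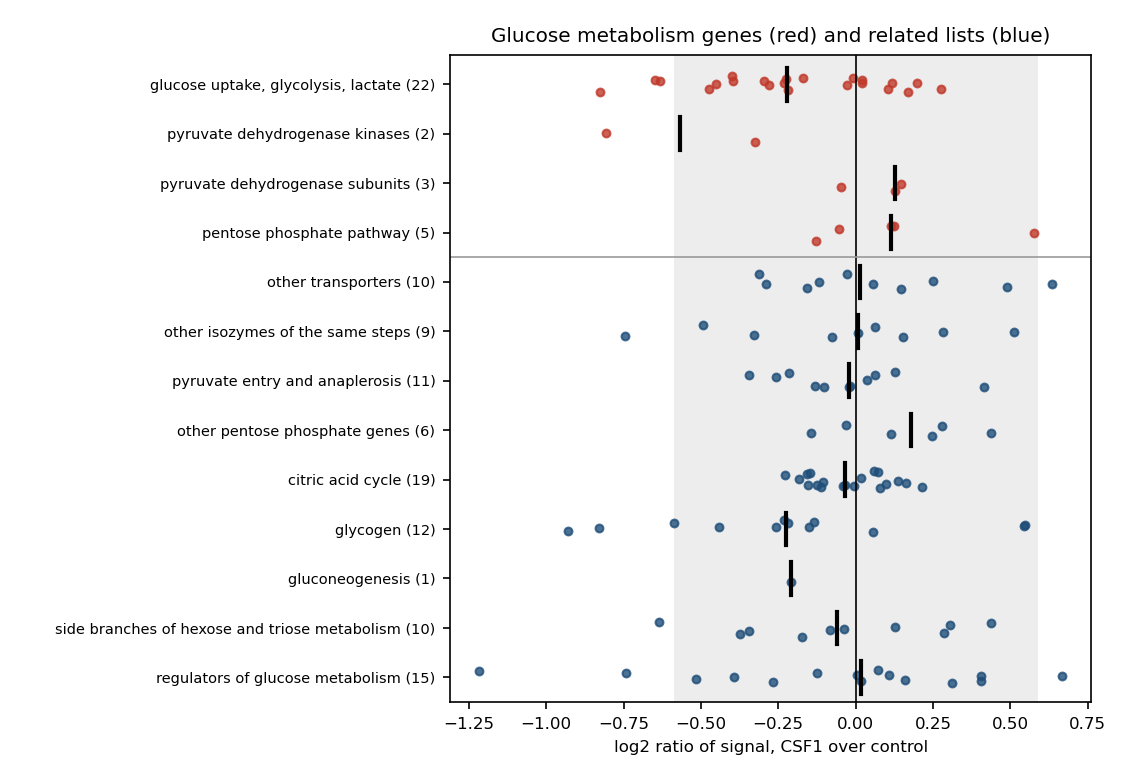
Log2 ratio of CSF1 over control for each measured gene, 1 point per gene, in the groups described here (red) and in related lists (blue), with the number of genes in brackets, a black bar at the median and a grey band for ratios within 1.5-fold. For these values as deposited, the bar of glucose uptake, glycolysis and lactate lies at -0.22 and that of glycogen genes at -0.22. That of the citric acid cycle lies at -0.03.

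Of the 32 genes, 17 were below the median of all measured genes as deposited and under each alternative that gave them a value, and 8 were above it. The same shares over all measured genes were not worked out. All alternatives use the same 2 arrays, and most use the same probe set, so these counts say nothing about glucose metabolism genes against others. The 17 comprise Slc2a1, Slc2a3, Hk2, Pfkl, Pfkp, Aldoa, Aldoc, Tpi1, Pfkfb3, Gapdh, Pgk1, Pgam1, Ldha, Slc16a3, Pdk1, Pdk3 and Taldo1. The 8 comprise Hk3, Pfkm, Pfkfb4, Pkm, Slc16a1, Pdha1, Tkt and Rpia. Some of these distances from the median were small under at least 1 alternative, 0.01 for Pfkm, -0.02 for Pfkp and Aldoc and -0.03 for Slc16a3. The 2 probe sets of Pfkp above background averaged 0.16 ± 0.27 (log2), and its mean over all probe sets takes in one below background.

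**Figure D4:**
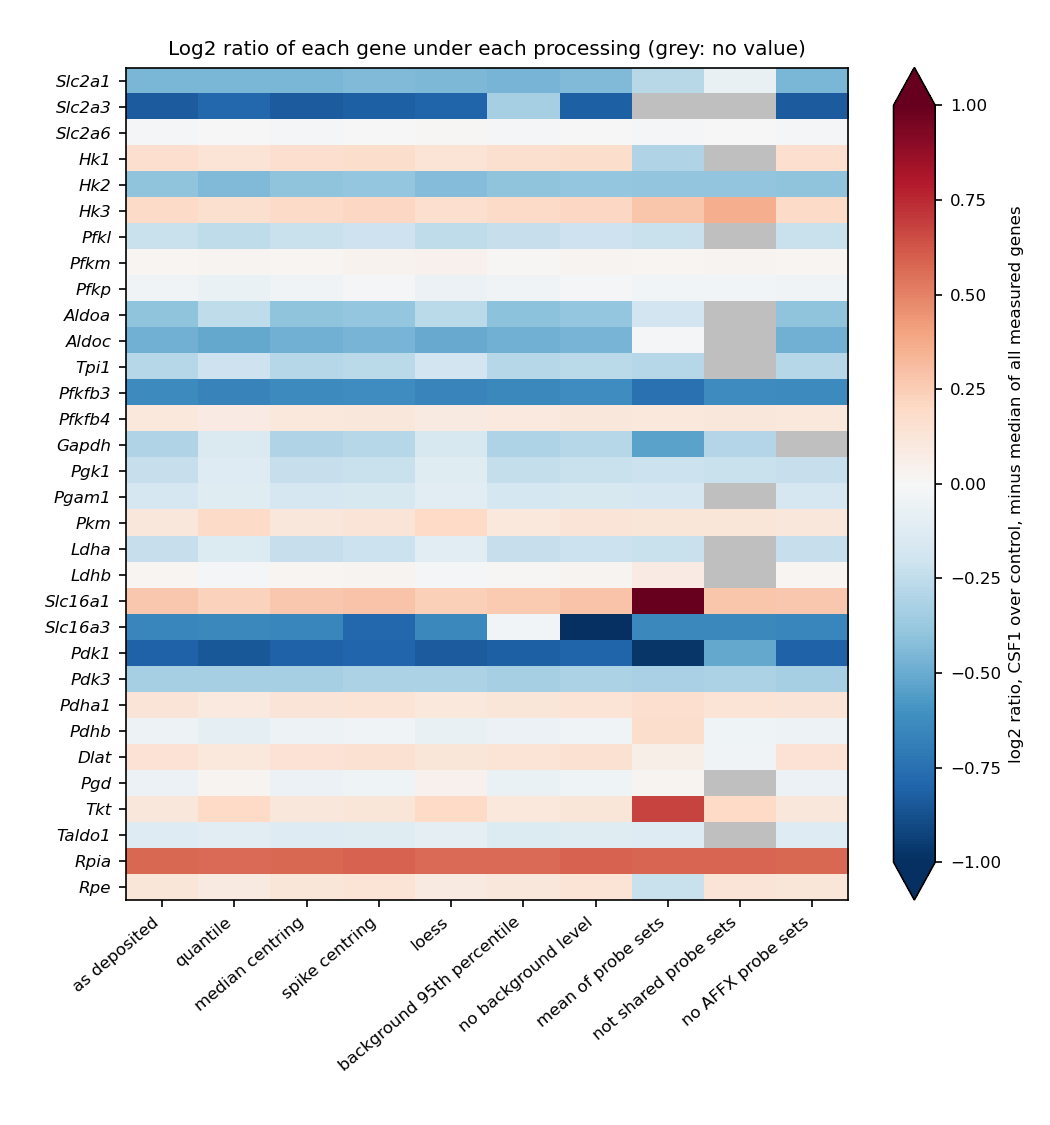
Log2 ratio of CSF1 over control minus the median of all measured genes (colour, blue for below and red for above), for each of the 32 measured genes (rows) under the values as deposited and 9 alternatives (columns), with grey where an alternative gave no value. Pdk1, Pfkfb3 and Hk2 are blue and Rpia is red in every column, whereas Hk1 and Rpe turn blue when all probe sets are averaged.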

How the data were processed

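The deposited values are probe set intensity values on a linear scale, which the authors obtained with GeneSpring 6.2, per the labels. Their mean after trimming 2% from each end was 500.003 on both arrays. The summary method of the probe sets and the detection calls are not given in the sources used here. Of 45101 probe sets, 34958 carried 1 gene symbol in the platform annotation, 932 several and 9211 none. The symbols were checked by Entrez ID against RefSeq, in which 204 of these probe sets had no match and no symbol differed.

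The members and lists were chosen with earlier results of these data known. Values were moved to log2 without further scaling, and each gene was represented by its probe set of highest mean log2 signal. The background level was the 90th percentile of signals from 54 unrelated-tissue genes (98 probe sets, 61 genes listed), and lower values were raised to it, which makes the fold of a gene at background on 1 array a lower bound. On the CSF1 array 38.8% of probe sets lay above it, and on the control array 40.1%. A fold of 1.5 was chosen as lying just past 2 pooled SDs between probe sets. Named genes are all members and, of each related list, those past 1.5-fold and the next largest ratio above background on both arrays. Some probe sets are marked by an s, x or a before the final _at as possibly shared between transcripts, and those of Slc2a1, Slc2a3, Hk1, Hk3, Pfkl, Aldoa, Aldoc, Tpi1, Pgam1, Ldha, Ldhb, Pdk1, Dlat, Pgd, Tkt and Taldo1 used here bear such a mark. Tried as alternatives were loess (span 0.3), quantile normalization, centring on the spikes or on the median, the 95th percentile as background or no background level, the mean of all probe sets, only unmarked probe sets, no control probe sets, and a log2 threshold of 0.32 or a fold of 2. The procedure was tested on simulated data with planted log2 ratios of 1 or 1.5 in either direction, in genes well above background. No planted ratio was as small as most of those here or in a gene near background. No shift of a whole array was simulated. The number of arrays limits the precision. Software was Python 3.11.15 with matplotlib 3.10.9, statsmodels 0.14.6, scipy 1.17.1, pandas 2.3.3 and numpy 2.4.6.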

Additional observations from a re-analysis of the deposited data

How the results depend on the processing

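Quantile normalization, loess and leaving out the control probe sets kept every count within 1.5 times of its value as deposited. The median ratio of all measured glucose metabolism genes together was -0.09 as deposited. It was -0.09 after quantile normalization, -0.07 after loess and -0.05 without the control probe sets. Quantile normalization and loess nevertheless moved the ratios of the following bright genes upwards. Over 1.5 times smaller were Gapdh at -0.13 and -0.15, Pgk1 at -0.11 and -0.11, and Ldha at -0.12 and -0.10. So were Pgam1 at -0.10 and -0.09 and Aldoa at -0.24 and -0.26. Ratios above 0 grew for Pkm, to 0.20 and 0.21, and for Tkt, to 0.21 and 0.21. Pgd changed sign, to 0.04 and 0.05. Centring on the spikes moved the most. It put the median at 0.20, left 10 genes below 0 and 0 at least 1.5-fold lower, made 1 at least 1.5-fold higher, and gave 3 genes of the related lists at least 1.5-fold lower and 13 higher. Relative to all genes, the median was -0.09 as deposited, -0.08 with the spikes or loess, -0.10 after quantile normalization and -0.13 with all probe sets averaged. It shrank to -0.06 with the 95th percentile as background, -0.06 without control probe sets, -0.04 with no background level and -0.02 on probe sets not marked as shared. Centring on the median made 1 gene, Rpia, at least 1.5-fold higher. With the 95th percentile as background, 2 genes, Pfkfb3 and Pdk1, were at least 1.5-fold lower, and 1 of the related lists at least 1.5-fold higher. With no background level, 1 gene, Pdk2, was at least 1.5-fold higher, and the related lists had 15 lower and 10 higher. Averaging all probe sets made 2 genes at least 1.5-fold higher, Slc16a1 (1.43) and Tkt (0.68), each through a probe set below background, and brought Aldoc to -0.02. On probe sets not marked as shared, 21 genes were left, with 2 at least 1.5-fold lower (Pfkfb3 and Slc16a3), 12 below 0, 12 below the median of all genes and 1 gene of the related lists at least 1.5-fold higher. Fewer genes had a value there, and another probe set put Pdk1 at -0.52, Slc2a1 at -0.08 and Dlat at -0.04. A threshold of 0.32 (log2) gave 9 lower and 1 higher, and a fold of 2 gave 0 lower with Slc16a3 at its bound. Of 275 values of single genes under these alternatives, 222 lay within the SD between probe sets of the value as deposited, and no gene past 1.5-fold changed sign. The pooled SD of 0.28 is larger than many of these ratios, so lying within it does not show that a ratio held. No paired analysis was possible because each group has 1 array. Signals near background limit Slc2a3, Slc16a3 and Pdk2.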
